A study of Caenorhabditis elegans with 8 samples.

Results

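The lact genes of Caenorhabditis elegans, lact-1 to lact-9, carry a symbol that stands for a lactamase domain. They were taken by symbol from the sequence names in the array files, with every probe that names them, and come to 9 of 20005 named genes and 16 of 43603 probes. The family was picked because lact-6 differed between genotypes in adults. Differences between KO and WT adults are therefore given as a description with no test, as are those of lact-6 between stages. The other 8 genes were tested between stages. Gene expression was measured on 8 single-colour arrays of total RNA, 2 in each of 4 groups: seip-1 knockout young adults (KO adults), wild-type N2 young adults (WT adults), seip-1 knockout embryos (KO embryos) and wild-type N2 embryos (WT embryos). Adults were collected at 52 h of feeding after the L1 stage, and embryos were released with hypochlorite from adults of that age, so each RNA came from a pool of animals. The labels name no allele for the knockout, do not say how many lines carry it, and do not say whether the 2 samples of a group were separate cultures. P-values therefore measure the spread between these samples, which may be technical.

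Proteins with a serine beta-lactamase-like domain are found in bacteria, where relatives build the cell wall or break down penicillin-like drugs, and in animals. The human protein of this kind, LACTB, lies in mitochondria, assembles into filaments, and lowers phosphatidylserine decarboxylase, an enzyme that makes phosphatidylethanolamine. Seipin, the protein that seip-1 encodes, sits in the endoplasmic reticulum where lipid droplets form. Roles of the single worm lact genes are not stated here, and protein and promoter sequences were not used, so the domain itself was not examined.

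Between 65.7% and 75.5% of probes were well above background per array. The probe for seip-1 (R01B10.6) read 5.74 and 6.97 in KO adults, against 3120 and 2966 in WT adults. It read 5.19 and 6.72 in KO embryos, against 3292 and 3871 in WT embryos, and was above background on no knockout array. The 4 adult arrays shared a slide and the 4 embryo arrays shared another. Genotypes are thus compared on the same slide, but a difference of stage cannot be told apart from one of slide. The median processed signal was 265 and 214 in KO embryos, against 74.7 and 77.4 in WT embryos. Levels below are processed intensities of 1 probe, in the arbitrary units of the scanner. Differences are log2 values after subtraction of each array's 75th percentile, with the standard error of the limma model (n = 2 arrays per group). Only values of the same probe are compared with each other.

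All 9 lact genes were measured, that is, well above background on both arrays of some group by at least 1 probe, and 7 were so on all 8 arrays. By sequence name they are F46H5.8 (lact-1), ZK945.1 (lact-2), M28.6 (lact-3), M05D6.4 (lact-4), C33F10.7 (lact-5), C06A12.5 (lact-6), C40H5.4 (lact-7), Y42A5A.2 (lact-8) and Y45F10D.11 (lact-9). In the RefSeq gene table of assembly WBcel235, lact-2, lact-3, lact-4 and lact-5 share a chromosome, lact-1 and lact-7 share another, and lact-6 and lact-9 another. Of the 9 genes 1, lact-8, shares a chromosome with seip-1. The array was designed on an older build, so no positions are given. Of the 9 genes 6 had more than 1 probe and 3 had 1.

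**Figure D1:**
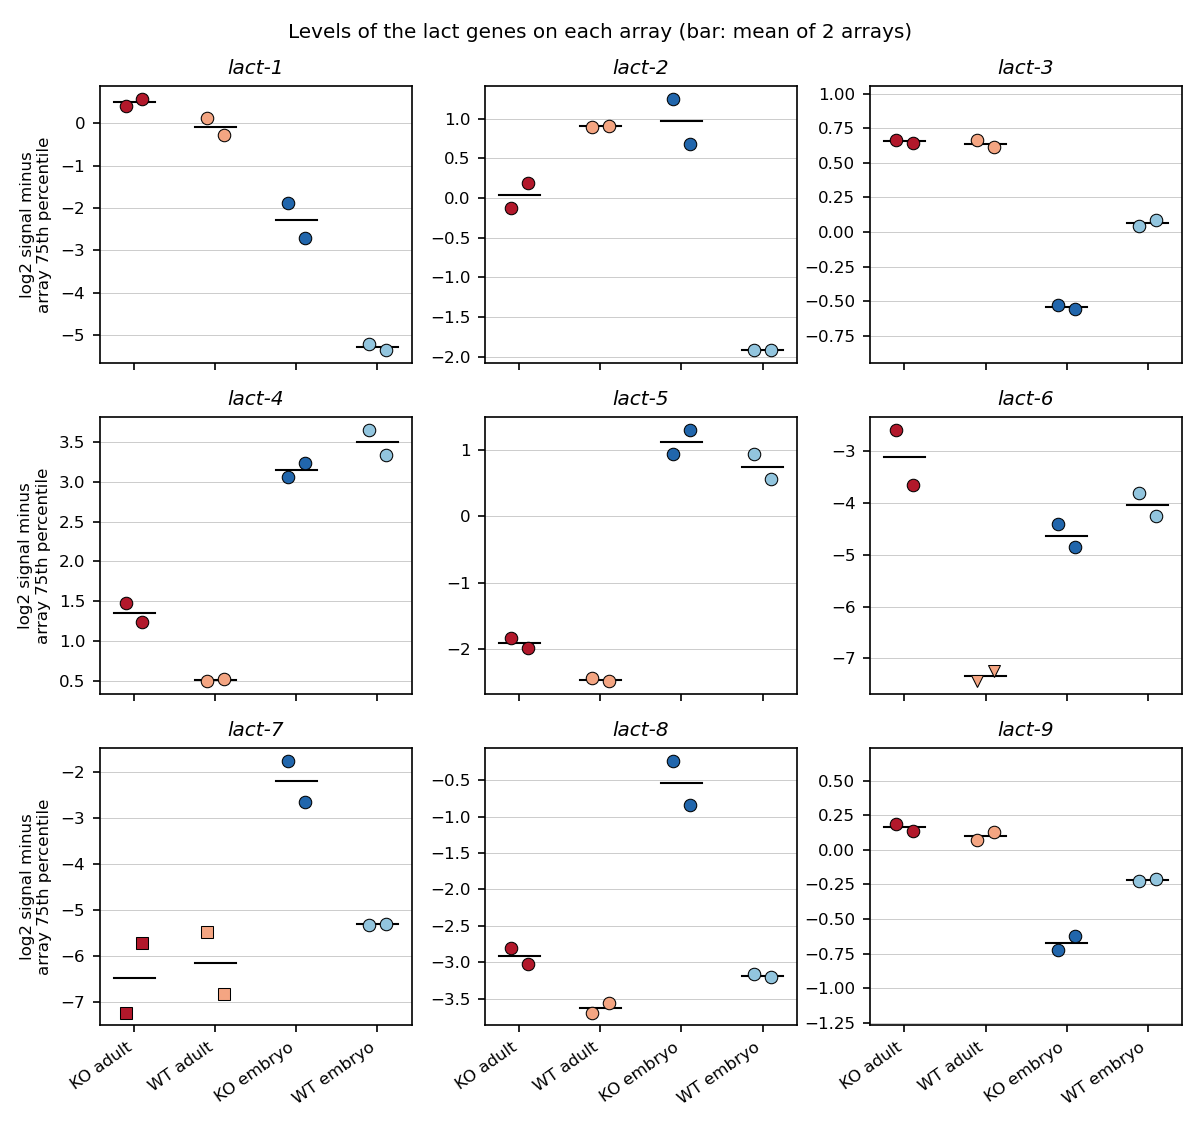
Normalised log2 signal (vertical axis, relative to the 75th percentile of each array) of each lact gene in KO adults, WT adults, KO embryos and WT embryos, with 1 point per array and a bar at the mean of 2 arrays. Circles mark groups above background on both arrays, squares on 1 of 2 and downward triangles on neither. WT adults of lact-6 are the only group drawn as triangles, and levels are not comparable between panels.

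In adults, the widest difference among the 9 genes was that of lact-6, for which the family was picked. Its brightest probe read 383 and 219 in KO adults, against 15.3 and 15.3 in WT adults, and 107 and 71.9 in KO embryos, against 99.1 and 77.2 in WT embryos. KO adults thus had the highest level of the 4 groups and WT adults the lowest. After scaling, no groups next to each other in order of level overlapped, while KO and WT embryos overlapped in processed intensities. The WT adult arrays were not well above background, so the measured log2 difference of 4.23 ± 0.37 is given as a bound. In processed intensities, lact-6 was at least 10.4-fold higher in KO adults. With normexp background correction the measured log2 difference was 1.97, which is under this bound. The bound therefore holds for the processed intensities only, and the size of the difference depends on the background correction. In bulk RNA, fewer cells that make a transcript and less of it per cell cannot be told apart.

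The other probe of lact-6 stayed near background, and why the probes differed was not tested. It read 6.56 and 17.1 in KO adults, against 21.1 and 10.1 in WT adults, and between 3.90 and 5.31 on the 4 embryo arrays. It was well above background on no array, so it gives no difference between groups. The value for lact-6 therefore rests on 1 probe.

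**Figure D2:**
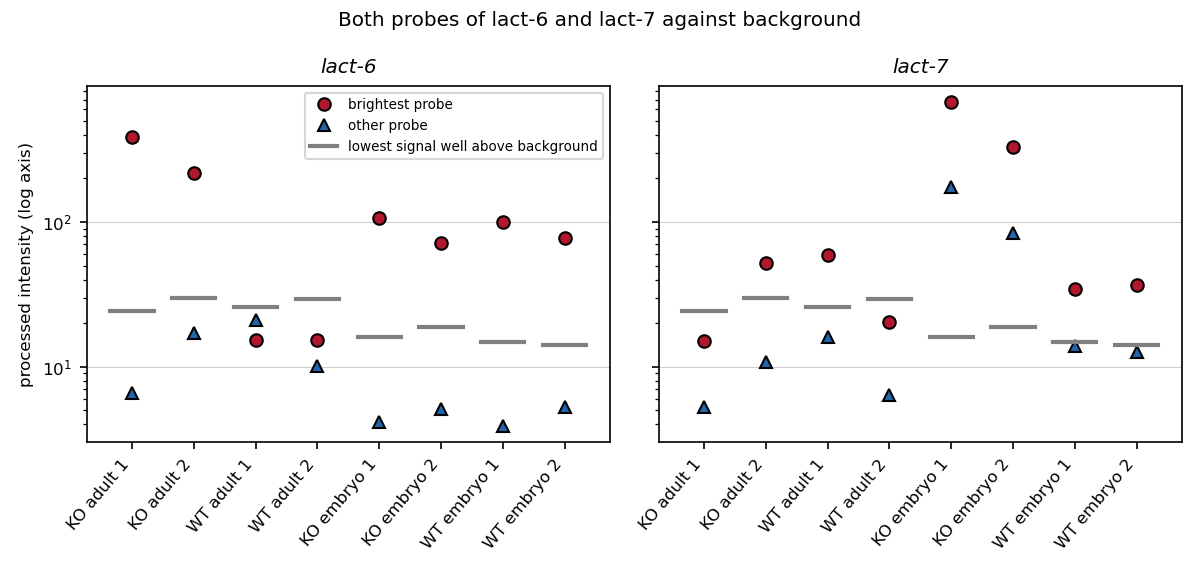
Processed intensity (log axis, scanner units) of both probes of lact-6 and lact-7 on each of the 8 arrays, beside the lowest signal well above background on that array. The brightest lact-6 probe reads 383 and 219 in KO adults and 15.3 and 15.3 in WT adults, while its other probe stays at or under 21.1 on every array.

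The other lact genes differed less between KO and WT adults. The probe of lact-4 read 6370 and 6477 in KO adults, against 3751 and 3311 in WT adults. The probe of lact-8 read 329 and 338 in KO adults, against 207 and 195 in WT adults. Both genes were higher on both KO arrays, by log2 0.85 ± 0.17 for lact-4 and 0.72 ± 0.22 for lact-8. For lact-1 the values were 3054 and 4121 in KO adults, against 2898 and 1896 in WT adults (log2 0.58 ± 0.29). For lact-5 they were 643 and 692 in KO adults, against 493 and 410 in WT adults (0.55 ± 0.20). The normalised groups did not overlap for either of these genes.

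In the opposite direction, lact-2 read 2103 and 3135 in KO adults, against 4991 and 4311 in WT adults, a log2 difference of -0.87 ± 0.22. The genes lact-3 and lact-9 lay close to 0, at 0.02 ± 0.12 and 0.06 ± 0.13. lact-7 read 15.1 and 51.9 in KO adults, against 59.3 and 20.3 in WT adults, and was above background on 1 of 2 arrays in each group. Its groups overlapped, and with both genotypes near background no difference can be read for it. Counted over the 9 genes, both KO adult arrays lay above both WT adult arrays in 6 and below them in 1. Over all genes tested these shares were 13.2% and 14.9%, and since the family was picked on this comparison nothing is read from the counts. The median log2 difference was 0.55 over the 9 genes and 0.00 over all genes, and 0.1% of the genes tested passed the limma test in adults.

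**Figure D3:**
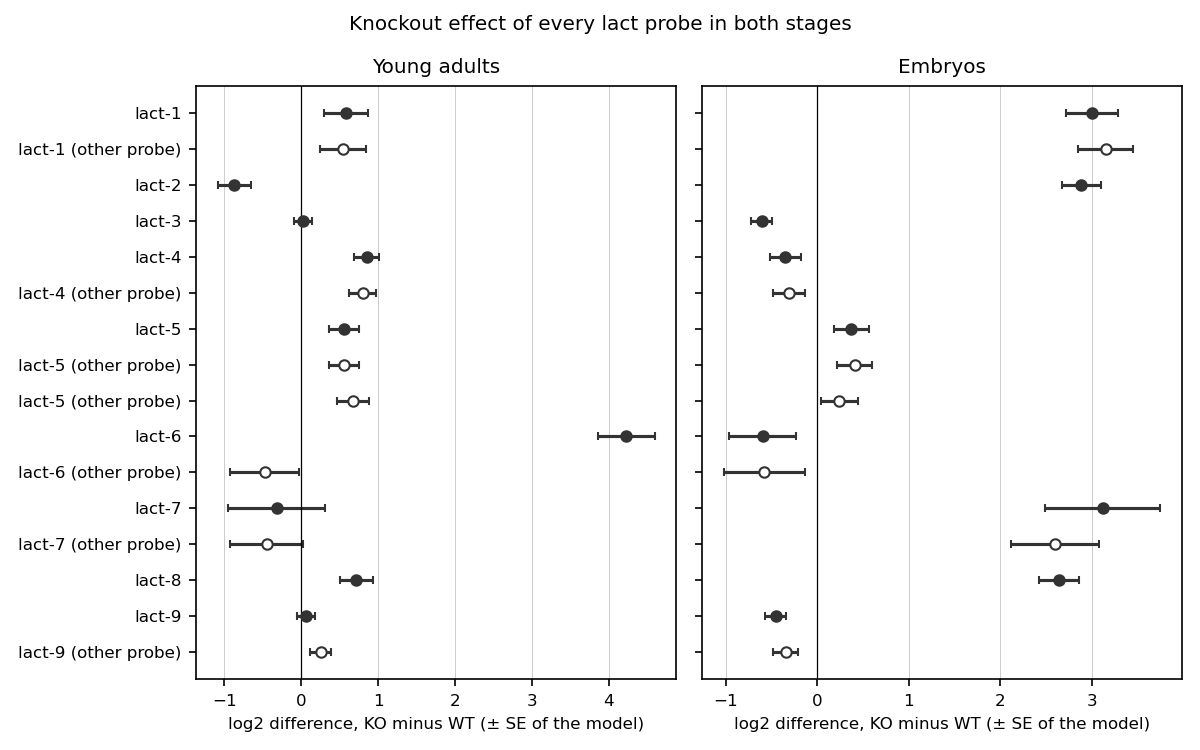
Log2 difference of KO minus WT (horizontal axis, ± SE of the limma model) for all 16 lact probes, in adults and in embryos. Filled points are the probes that stand for a gene and open points the other probes. The filled point of lact-6 is drawn at 4.23 in adults, where WT adults were at background. In embryos the filled points of lact-1, lact-2, lact-7 and lact-8 lie between 2.64 and 3.12.

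In embryos 4 lact genes rose in the knockout and 2 fell. The rises were in lact-1, lact-2, lact-7 and lact-8. lact-1 read 614 and 318 in KO embryos, against 37.2 and 35.8 in WT embryos, and rose 8.0-fold (log2 3.0 ± 0.29, limma adjusted p = 1.20e-04). lact-2 read 5410 and 3316 in KO embryos, against 368 and 389 in WT embryos, and rose 7.40-fold (2.89 ± 0.22, limma adjusted p = 5.56e-05). In both genes each KO array was far above both WT arrays.

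lact-7 read 671 and 329 in KO embryos, against 34.6 and 36.9 in WT embryos, and rose 8.69-fold (3.12 ± 0.63, limma adjusted p = 0.00320). lact-8 read 1925 and 1147 in KO embryos, against 154 and 160 in WT embryos, and rose 6.24-fold (2.64 ± 0.22, limma adjusted p = 7.50e-05). KO embryo array 1 lay farther from wild type than array 2 in 4 of these 4 genes. All 4 kept direction and call in each alternative that measured them, including each fit that left out 1 array. On the log2 scale they ranged from 1.52 to 3.60 for lact-1, from 1.84 to 3.49 for lact-2, from 1.51 to 3.72 for lact-7 and from 1.59 to 3.24 for lact-8.

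The falls were small. lact-3 read 1574 and 1402 in KO embryos, against 1427 and 1559 in WT embryos, and fell after scaling by 0.60 on the log2 scale (SE 0.12, limma adjusted p = 0.00318). lact-9 read 1373 and 1343 in KO embryos, against 1187 and 1270 in WT embryos, and fell by 0.45 (SE 0.13, limma adjusted p = 0.0128). Before scaling, the groups of lact-3 overlapped and both KO arrays of lact-9 were above both WT arrays, so both falls depend on the scaling of the arrays. With no scaling the differences were -0.01 for lact-3 and 0.15 for lact-9, and neither passed. The fall of lact-9 did not pass without WT embryo array 1 (limma adjusted p = 0.0618) or array 2 (0.0679).

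For lact-6, lact-4 and lact-5 no difference passed in embryos. lact-6, at 107 and 71.9 in KO embryos, against 99.1 and 77.2 in WT embryos, gave -0.60 ± 0.37 (limma adjusted p = 0.171). lact-4 read 18935 and 19480 in KO embryos, against 17504 and 14861 in WT embryos, and gave -0.35 ± 0.17 (adjusted p = 0.0975). lact-5 read 4345 and 5088 in KO embryos, against 2664 and 2157 in WT embryos, and gave 0.37 ± 0.20 (adjusted p = 0.116). The sign for lact-4 and lact-5, and whether lact-4, lact-5 and lact-6 passed, changed with the scaling.

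These counts stand against a background in which most genes differed. Of all genes tested in embryos 84.9% passed, 44.6% upward and 40.3% downward, and the groups did not overlap in 94.8%. The share of lact genes that rose, 4 of 9, is near that background and is no result about the family. The median log2 difference was 0.37 over the 9 genes and 0.15 over all genes. The 4 risen genes were above between 81.9% and 93.0% of the genes tested. Other scalings moved the median of all genes, to -0.90 with each array's median, to -0.67 with the median of measured probes, to 0.02 with quantile normalization and to 0.75 with no scaling. Of the calls in embryos 52.5% were upward, against 37.4%, 40.6% and 65.0% with median scaling, the median of measured probes and no scaling. Relative to the median of all genes, the 4 risen genes were higher by between 2.50 and 2.97 in the fit given here.

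**Figure D4:**
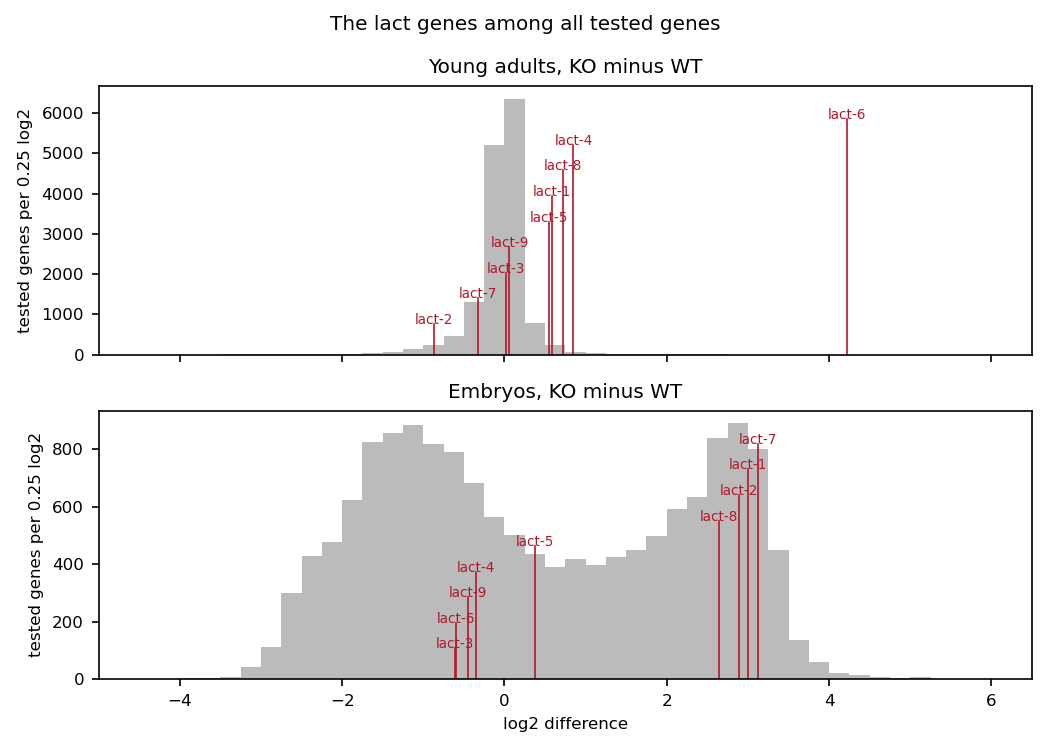
Number of tested genes per 0.25 log2 (vertical axis) by the log2 difference of KO minus WT in adults and in embryos, with the 9 lact genes marked. Genes beyond the drawn range are not shown, and lact-7 was not tested in adults. In adults most genes lie near 0 and lact-6 is drawn at 4.23, where WT adults were at background, while the embryo values spread widely and lact-1, lact-2, lact-7 and lact-8 sit in their upper part.

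Tissue markers differed between the embryo groups on a wide scale, beside the 44.6% of all genes that rose and the 40.3% that fell. All 12 intestine markers rose (median log2 3.03), with a summed level, in units of the 75th percentile, of 93.0 to 126 in KO embryos and 16.6 on both arrays of WT embryos. Of 10 muscle markers 9 rose (median 3.0, summed level 141 to 173 in KO embryos and 25.5 to 25.9 in WT embryos), and of 11 epidermis and cuticle markers 9 rose and 0 fell (2.13). All 20 oocyte and germline markers fell (-2.41), with a summed level of 45.8 to 54.8 in KO embryos and 206 to 255 in WT embryos. Of 14 early zygotic markers 12 fell (-2.52), and of 10 neuron markers 8 rose and 2 fell (2.90). Their part in the lact values was not tested. In adults no tested marker of any of these lists passed, and only 3 of the 14 early zygotic markers were tested there.

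Several genes gave a further reading of these differences through other probes. The other lact-1 probe gave 0.55 ± 0.30 in adults and 3.15 ± 0.30 in embryos, close to the 0.58 and 3.0 of the brightest probe. The other lact-4 probe gave 0.80 in adults and -0.31 in embryos. The other 2 probes of lact-5 gave 0.55 and 0.67 in adults and 0.41 and 0.24 in embryos. These probes pointed the same way as the probe that stands for the gene.

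For lact-7 the other probe read 174 and 84.5 in KO embryos, against 13.9 and 12.6 in WT embryos, where it was not well above background. By that probe lact-7 was at least 5.51-fold higher in KO embryos. The other probe of lact-9 read 51.1 and 52.0 in KO embryos, against 40.6 and 46.0 in WT embryos, and gave -0.35 ± 0.14. Both probes of lact-9 were thus below 0 in embryos after scaling. The probes of each gene were read on the same RNA, so they are no further replicates.

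Set against embryos of the same genotype, the lact genes divided by stage. In the knockout, lact-1 (2.79 ± 0.29, limma adjusted p = 1.21e-04), lact-3 (1.20 ± 0.12, 1.15e-04) and lact-9 (0.83 ± 0.13, 7.92e-04) were higher in adults. lact-7 was lower by 4.28 on the log2 scale (SE 0.63, limma adjusted p = 7.20e-04), with KO adults above background on 1 of 2 arrays, and by its other probe was at least 5.22-fold lower in KO adults. Also lower were lact-5 (-3.03 ± 0.20), lact-8 (-2.37 ± 0.22), lact-4 (-1.79 ± 0.17) and lact-2 (-0.94 ± 0.22, adjusted p = 0.00654). lact-6 differed by 1.51 ± 0.37, given with no test.

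In the wild type, lact-1 was 37-fold higher in adults (log2 5.21 ± 0.29, limma adjusted p = 6.05e-06), the widest difference among the 8 genes tested, and lact-2 was 7.07-fold higher (2.82 ± 0.22, adjusted p = 2.85e-05). Lower in adults were lact-5, by 9.26-fold (-3.21 ± 0.20, adjusted p = 9.68e-06), and lact-4, by 7.95-fold (-2.99 ± 0.17, adjusted p = 7.16e-06). Small rises passed for lact-3 (0.57 ± 0.12, adjusted p = 0.00398) and lact-9 (0.32 ± 0.13, adjusted p = 0.0491). The values for lact-7 (-0.84 ± 0.63, adjusted p = 0.249) and lact-8 (-0.44 ± 0.22, adjusted p = 0.101) did not pass. lact-6, given with no test, was at least 5.53-fold lower in WT adults than in WT embryos in processed intensities. With normexp correction its log2 difference was -1.52, smaller than this bound. For lact-2 the direction between stages was thus opposite in the genotypes, at -0.94 in the knockout and 2.82 in the wild type, and the difference between these was not tested.

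**Figure D5:**
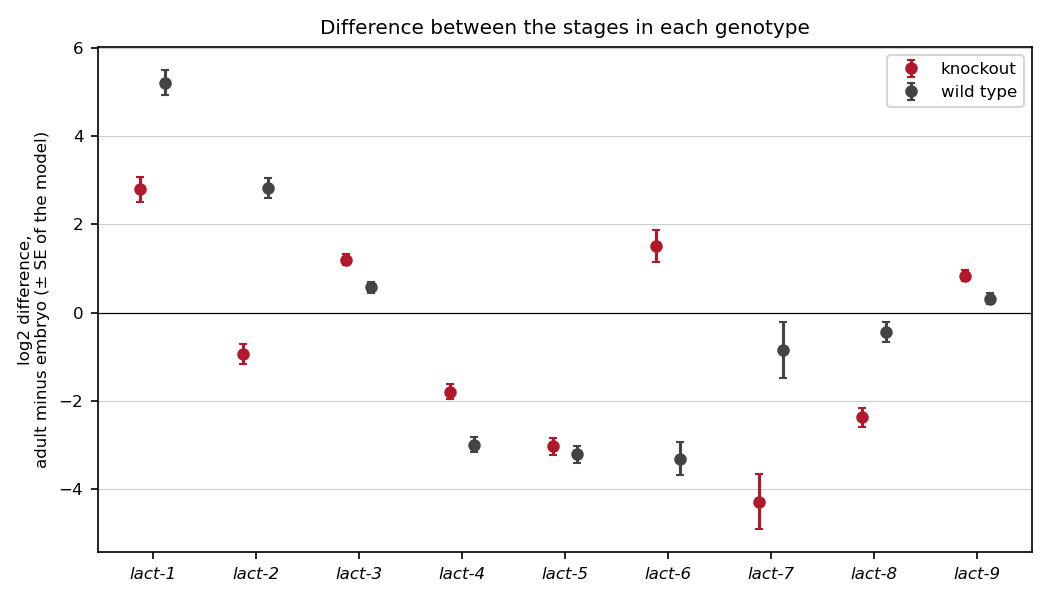
Log2 difference of adults minus embryos (vertical axis, ± SE of the limma model) of each lact gene, in the knockout and in the wild type. lact-2 is below 0 in the knockout (-0.94) and above 0 in the wild type (2.82), and lact-6 is at 1.51 in the knockout and -3.31 in the wild type, where WT adults were at background.

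Of the 8 genes tested between stages, 3 were higher and 5 lower in KO adults than in KO embryos, against 81.4% of all genes passing (43.2% higher, 38.3% lower). In the wild type 4 were higher, 2 lower and 2 did not pass, against 84% of all genes (42.6% higher, 41.4% lower). The median over the 8 genes was -1.36 in the knockout and -0.06 in the wild type, while that over all genes was 0.17 and -0.01. The rise of lact-9 in WT adults lay close to the threshold (limma adjusted p = 0.0491). With 1 array left out, its log2 difference stayed between 0.29 and 0.35. With all arrays, the rise missed the threshold under quantile normalization (limma adjusted p = 0.0738), normexp correction (0.0824) and no filter on dim probes (0.0674). It did not pass without either KO adult array (limma adjusted p = 0.0628 each), WT adult array 1 (0.145) or 2 (0.206), or WT embryo array 1 (0.167) or 2 (0.153). The difference of lact-8 in the wild type passed without KO embryo array 1 or 2 (adjusted p = 0.0278 each). The other probe of lact-9 gave -0.58 ± 0.14 in the knockout and -1.18 ± 0.14 in the wild type, opposite to the brightest probe in both.

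Across the 8 arrays some lact genes followed each other. As a description, with arrays of 4 groups as points, Pearson's r was 0.99 for lact-3 with lact-9, 0.98 for lact-4 with lact-5 and 0.89 for lact-7 with lact-8. It was lowest for lact-7 with lact-9, at -0.95. Each r is for the brightest probe of a gene. The other probe of lact-9 differed the opposite way between stages and no r was computed for it, so both values with lact-9 rest on 1 probe. No r of lact-6 with another lact gene exceeded 0.52 or fell under -0.47. The 3 genes outside the family most like lact-6 were T07E3.4 (r = 0.90), F22E5.13 (0.86) and lbp-3 (0.84), which encodes a fatty acid binding protein. Their adult log2 differences were 0.91, 0.75 and 0.27. For every other lact gene the most similar gene had r of at least 0.995, among them clec-5, a C-type lectin gene, for lact-1 (0.997) and chil-23, a chitinase-like gene, for lact-2 (0.998). All such pairs share the arrays and their scaling. Values of lact-7 in adults were near background, and those of lact-6 in WT adults were at background. Each r of these genes therefore rests in part on such values.

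Genes of the lipid pathway that human LACTB touches were also read. The counts of this list and those after it stand beside 84.9% of all genes passing in embryos, 44.6% upward and 40.3% downward, and nothing is called particular to a list. Of 19 genes of phosphatidylethanolamine, phosphatidylserine, phosphatidylcholine and cardiolipin synthesis, 4 rose, 10 fell and 5 did not pass in KO embryos (median log2 -0.64, against 0.15 for all genes), so that fewer passed than in the background. The choline kinase gene cka-2 rose by 2.96 ± 0.18 and pcyt-2.2, an enzyme gene of phosphatidylethanolamine synthesis, by 2.23 ± 0.17. pssy-2, a phosphatidylserine synthase gene, fell by 2.15 on the log2 scale (SE 0.19), and the acyltransferase gene acl-3 fell by 2.08 (SE 0.19). psd-1, which encodes phosphatidylserine decarboxylase and was singled out after its values were seen, gave 0.02 in adults and -0.16 ± 0.17 in embryos (limma adjusted p = 0.413 in embryos). With no scaling 8 of the 19 rose.

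Of 19 genes of mitochondrial membrane organisation 15 fell, 0 rose and 4 did not pass in KO embryos (median -0.89). The oocyte and germline markers, of which 20 of 20 fell with a median of -2.41, moved the same way in these embryos, and their part was not tested. Among the mitochondrial genes, immt-2, a mitofilin gene of the cristae junction, fell by 2.46 on the log2 scale (SE 0.19). The stomatin-like gene stl-1 fell by 1.91 (SE 0.16) and the calcium uniporter gene mcu-1 fell by 1.71 (SE 0.16). moma-1, of the same cristae complex as immt-2, fell by 1.22 (SE 0.13). With no scaling 8 fell and 3 rose. Of 9 genes with a metallo-beta-lactamase fold, which shares the name but not the structure of the serine kind, 1 rose, 6 fell and 2 did not pass (median -1.28). swip-10 rose by 2.75 ± 0.15, while mrt-1, a telomere nuclease gene, fell by 2.24 (SE 0.17), and the Integrator genes ints-9 and ints-11 fell by 1.77 (SE 0.22) and fell by 1.52 (SE 0.19). In adults 0 of these 47 genes passed the limma test (lowest adjusted p = 0.481), and 3 had an unadjusted p under 0.05. In each alternative run 0 of them passed as well.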

How the data were processed

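The members and lists were chosen with earlier results of these data known. Per the labels, 0.2 µg of total RNA per sample was labelled with Cy3 in 1 colour. Per the submitters' processing notes, intensity values were extracted with Agilent Feature Extraction 10.7.1.1. Per the file headers, the processed intensity is background-subtracted and detrended within an array, and arrays are not scaled to each other. The deposited table holds log2 values with column medians between -0.18 and 0.05. Its steps are not given in the sources used here. Recomputing it as log2 intensity minus the 75th percentile and minus the average wild-type array at that stage gave correlations of at least 0.998 per array, so it was used as an alternative for genotype differences only. The 0 or 1 quality flags, of no unit, are those of the deposited files.

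Here log2 processed intensities, with control spots and 4 to 12 outlier-flagged spots per array left out (0 saturated), had the 75th percentile of the array subtracted, which was 1387 to 2745. Probes were named through the RefSeq gene table: 31497 by sequence name, 3674 by accession, with 8432 unnamed. The brightest probe measured (on both arrays of any group, well above background) stood for its gene, which gave 16829 genes, 4992 of them with more than 1 such probe. The arrays hold no counts, and their number limits the precision.

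Groups followed the labels. All 8 arrays entered 1 model with 4 group means in limma 3.58.1 (R 4.3.3), with 4 residual and 2.39 prior degrees of freedom and a two-sided moderated test. Benjamini-Hochberg adjustment ran over all genes tested in a comparison, those measured in at least 1 of its groups, at a threshold of 0.05. A group at background on both arrays has a bound, set against the higher of the probe's own value and the lowest signal above background on each array. Bounds were computed from the processed intensities, without normexp correction. The model was tested on simulated data in which few genes changed and no scaling between arrays was applied. Most genes differed in the embryo and stage comparisons, so that test does not cover their setting. Named genes were all lact genes, seip-1, the most correlated genes (3 for lact-6, 1 for each other lact gene), the adjacent protein-coding genes, and up to 4 genes per list by embryo adjusted p. Of the list symbols tam-41, lclt-1, tim-23 and hoe-1 matched no gene.

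Alternatives covered scaling, background correction, probe filter, probe summary, prior, array weights, arrays of 1 stage, a replicate block, the deposited table and each array left out. The normexp correction used an offset of 50 and median spot signals, since no mean signal column was present. Scaling by the median of measured probes, no scaling and a crossed block were added after seeing the data. Same-numbered KO and WT samples deviated with r = -0.48 in adults and 0.00 in embryos over 16829 genes, and no label says that a number marks a shared batch, so the numbers were not taken as pairs. Python 3.11.15 with matplotlib 3.10.9 made the figures.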

Additional observations from a re-analysis of the deposited data

Results flagged for a closer look

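In 4 lact genes both KO arrays lay on one side of both WT arrays in adults and on the other side in embryos, which marked them for a closer look. The difference between the stages was not tested in any of them. The log2 difference of KO minus WT was -0.87 in adults and 2.89 in embryos for lact-2. For lact-6 it was 4.23 in adults, where WT adults were at background, and -0.60 in embryos, where it did not pass the limma test. For lact-4 it was 0.85 in adults and -0.35 in embryos, and the embryo value did not pass the limma test and was positive under quantile normalization and with no scaling. For lact-9 it was 0.062 in adults and -0.45 in embryos, and the embryo value was positive with no scaling.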

How the results depend on the processing

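Of the effects of single lact genes over the alternatives run, 188 of 205 in embryos kept direction and call. Between stages 185 of 187 in the knockout and 155 of 187 in the wild type did so or, for lact-6, which had no test, moved by less than the spread between replicates. In adults, with no test, 198 of 205 moved by less than that spread, although the sign changed for lact-7 (-1.08 to 0.44) and lact-3 (-0.01 to 0.05). The count of lact genes that rose in KO embryos was 4, and 5 with quantile normalization or no scaling and 3 of 7 with probes above background on all arrays. The count that fell was 2, and 5 with median scaling, 3 with quantile normalization, 4 with the median of measured probes, 1 with a replicate block, 0 with no scaling, and 1 to 2 with 1 array left out. The embryo sign turned for lact-5 (-0.67 with median scaling, -0.44 with the median of measured probes), lact-4 (0.36 with quantile normalization, 0.25 with no scaling), lact-6 (0.0019 with no scaling) and lact-9 (0.15 with no scaling). Between wild-type stages, lact genes higher in adults were 2 with either median scaling and 3 to 4 with 1 array left out, and those lower were 5 with median scaling, 4 with the median of measured probes or quantile normalization, and 2 to 3 with 1 array left out. There the sign turned for lact-3 (-0.33 with median scaling, -0.076 with the median of measured probes), for lact-9 (-0.59 and -0.33 with these, and -0.43 with the mean of probes) and for lact-8 (0.35 with no scaling). Upward calls between wild-type stages were 50.7%, against 37.3%, 40.4% and 68.6% with median scaling, the median of measured probes and no scaling. Of all genes 15 passed in adults, 52 with normexp correction, 24 with a trended and robust prior, 8 with array weights, 1 with the adult arrays alone, 2 with a replicate block, 1 with the crossed block, and 2 to 74 with 1 array left out, 74 of them without KO adult array 1. With the replicate block, adjusted p for lact-9 was 0.0951 in embryos and 0.212 between wild-type stages, and it changed no other lact call. Restriction to probes above background on all arrays left out lact-6 and lact-7. The cause of these changes was not tested.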

Other observations

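The 18 protein-coding genes next to the lact genes in the RefSeq table of assembly WBcel235 were all measured. In KO embryos 10 of them rose, 7 fell and 1 did not pass the limma test, against 84.9% of all genes passing, 44.6% upward and 40.3% downward. Neighbours of lact-3, lact-4, lact-5 and lact-7 are in these counts but not described singly, and nothing is called particular to a position. Beside lact-6, C06A12.3 rose by 1.25 ± 0.14 on the log2 scale and gcy-27, a receptor guanylate cyclase gene, by 2.80 ± 0.24, where lact-6 itself gave -0.60 ± 0.37. Beside lact-2, which rose, die-1, a zinc finger transcription factor gene, fell by 1.00 (SE 0.18) and pas-7, a proteasome subunit gene, fell by 2.35 (SE 0.17). Both neighbours of lact-8, which rose, also rose, Y42A5A.1 by 2.38 ± 0.22 and Y42A5A.3 by 2.65 ± 0.31. Of the neighbours of lact-1, F46H5.5 rose by 2.83 ± 0.23 and F46H5.2 fell by 1.17 (SE 0.17). Both neighbours of lact-9 fell, gly-10 by 0.85 (SE 0.15) and iscu-1, an iron-sulfur cluster scaffold gene, by 0.67 (SE 0.13).

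In adults 15 of the 18 neighbours were tested and 0 passed the limma test (adjusted p = 0.999861 each), with log2 differences between -0.13 and 0.36. C06A12.3, the tested neighbour of lact-6, gave -0.03 ± 0.14. The bound for lact-6 was at least 10.4-fold in processed intensities, with a measured log2 difference of 1.97 under normexp correction.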
